A study of Mus musculus with 2 samples.

Results

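Bidirectional protein-coding promoters are stretches of DNA from which 2 protein-coding genes are transcribed away from each other, and here they were described by their accessible chromatin in mouse hippocampus. In GENCODE M21, 1066 autosomal gene pairs had protein-coding transcript starts on opposite strands that diverged and lay at most 1000 bp apart. Members were the accessible sites found in both samples that overlapped the span between the 2 starts plus 500 bp on each side. The rule gave 1432 member peaks of 49472 autosomal sites found in both samples (2.89%), and 8.55% of the sites at protein-coding starts. The other 15318 promoter peaks, within 500 bp of a protein-coding start outside these pairs, served for comparison. Peaks at the same pair share a locus, and peaks are not replicates of a condition.

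The assay was DNase-seq: nuclei are treated with DNase I, a nuclease that cuts mainly DNA free of nucleosomes, and sequencing of the cut ends maps accessible chromatin. There was 1 group of 2 samples, replicates 1 and 2. Both were hippocampus (the labels speak of a layer, without saying which) from B6CASTF1/J males (the F1 generation of B6 by CAST) at an age of 2 months, and neither had a stated treatment. They were separate biosamples with the same donor entry, and whether those were different animals is not stated, so the spread between them may be technical. The maternal and paternal alleles are pooled in every height, since all coordinates are on the mm10 reference. No comparison between groups of samples existed, and no p-value was computed. Each class of promoter was described in each replicate, and exact (Clopper-Pearson) 95% intervals of shares cover counting error only.

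In head-to-head gene pairs a single nucleosome-depleted region can serve both genes, with polymerase loaded in opposite directions at its edges. Such promoters are usually rich in CpG dinucleotides and poor in TATA boxes, and they are known for housekeeping functions such as DNA repair, mitochondrial protein synthesis and protein folding. Factors of the ETS family, NRF1, NF-Y (which binds the CCAAT box), Sp and KLF factors (GC box) and YY1 are known to act at promoters of this kind.

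The stretches between the starts of 5 of the pairs named below are shown first because they hold motifs covered by footprints, which are short protected stretches inside open chromatin, in both replicates. They were read from GRCm38 (mm10), plus strand, 5′ to 3′, from the base after the start of the minus-strand gene to the base before the start of the plus-strand gene, and none overlapped an annotated exon. The gene named first is on the minus strand. Capitals mark motif matches that a footprint overlapped in both replicates.
Fbh1/Ankrd16 (chr2:11777583-11777875): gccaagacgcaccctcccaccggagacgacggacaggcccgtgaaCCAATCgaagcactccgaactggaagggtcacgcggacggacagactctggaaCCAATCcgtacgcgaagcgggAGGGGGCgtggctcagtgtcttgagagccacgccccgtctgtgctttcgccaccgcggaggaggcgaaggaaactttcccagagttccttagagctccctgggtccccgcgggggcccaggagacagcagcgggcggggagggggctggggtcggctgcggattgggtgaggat
Apaf1/Ikbip (chr10:91082771-91082939): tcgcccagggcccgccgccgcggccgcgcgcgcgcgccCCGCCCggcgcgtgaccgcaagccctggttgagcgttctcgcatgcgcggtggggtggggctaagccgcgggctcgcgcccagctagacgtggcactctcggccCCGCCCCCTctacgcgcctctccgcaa
Usp37/Cnot9 (chr1:74505807-74506057): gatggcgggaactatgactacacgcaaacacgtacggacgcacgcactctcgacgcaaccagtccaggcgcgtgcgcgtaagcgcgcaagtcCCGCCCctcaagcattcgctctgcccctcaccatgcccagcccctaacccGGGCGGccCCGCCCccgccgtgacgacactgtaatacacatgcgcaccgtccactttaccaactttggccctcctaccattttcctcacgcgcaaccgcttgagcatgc
Gtf3c1/D430042O09Rik (chr7:125707781-125707887): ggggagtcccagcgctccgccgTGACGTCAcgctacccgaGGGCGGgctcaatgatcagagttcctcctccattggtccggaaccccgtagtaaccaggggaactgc
Ruvbl2/Gys1 (chr7:45434710-45434843): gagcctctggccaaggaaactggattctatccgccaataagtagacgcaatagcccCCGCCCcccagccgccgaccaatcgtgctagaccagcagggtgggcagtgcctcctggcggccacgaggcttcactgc
In these stretches the capitals fell on CCAAT boxes and a CTCF motif for Fbh1/Ankrd16, on GC boxes and a CTCF motif for Apaf1/Ikbip and on 3 GC boxes for Usp37/Cnot9. They fell on a cyclic AMP response element (CRE) and a GC box for Gtf3c1/D430042O09Rik and on a GC box for Ruvbl2/Gys1. A match is a description of letters and does not show that the factor was bound.

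A histone pair, chosen for contrast after its values were seen, had only 42.6% G and C between its starts, and no motif match there was covered in both replicates. The lack of covered matches is not particular to histone pairs. Klc4/Mrpl2, for example, had 61.7% G and C and 4 motif matches between its starts, and none was covered in both replicates.
Hist1h2an/Hist1h2bp (chr13:21787219-21787460): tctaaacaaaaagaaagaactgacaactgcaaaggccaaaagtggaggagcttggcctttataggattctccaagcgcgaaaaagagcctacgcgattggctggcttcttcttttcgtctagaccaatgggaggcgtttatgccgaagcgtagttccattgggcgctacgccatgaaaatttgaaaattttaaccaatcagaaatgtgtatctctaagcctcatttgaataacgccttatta

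Almost all divergent pairs were accessible in the hippocampus. A pair was called open where a shared peak, meaning the stretch where a peak of replicate 1 and a peak of replicate 2 overlap, reached into its window. Of the 1066 pairs, 987 were open (92.6%, 95% interval 90.8 to 94.1). Replicate 1 alone had a peak at 95.3% of the pairs and replicate 2 alone at 93.5%. Another 8 pairs had a peak in each replicate without overlap, 21 had a peak in replicate 1 only, 2 in replicate 2 only, and 48 had none. With the requirement that the peaks of the replicates cover at least 50% of each other, 71.3% of the pairs were open and 885 member peaks were left.

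Genes with a divergent coding partner were open more often than other genes. A gene was open where a shared peak lay within 500 bp of any of its starts, which held for 1953 of 2098 genes in divergent pairs (93.1%, 91.9 to 94.1), against a background of 58.2% of all 20722 autosomal protein-coding genes and 54.3% of the 18624 genes outside such pairs. In replicate 1 alone the shares were 95.6% in pairs and 61.1% outside, and in replicate 2 alone 94.0% and 55.8%. A single peak can lie within 500 bp of both starts of a pair. A gene in a pair can thus be open through the site of its partner, a chance that a lone gene lacks. The 2098 genes lay at 1046 promoter loci, and the interval counts each gene as independent, so it is too narrow. Genes whose opposite-strand coding starts overlapped rather than diverged were open in 84.7% of 327 cases (80.3 to 88.4). Genes with a divergent long noncoding RNA start but no coding partner were open in 80.9% of 1230 (78.6 to 83.1). Genes with no other start nearby were open in 51.8% of 17067 (51.0 to 52.5). The order of these classes was the same in both replicates, and the intervals of the overlapping and the noncoding class overlapped.

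The number of annotated starts gives a gene more chances to be open, and the difference was largest where that number was smallest. Among genes with 1 start position, 87.4% of 573 in divergent pairs were open against 41.8% of 7075 others. With 2 to 4 start positions the shares were 94.8% and 57.1%. With 5 or more they were 96.3% and 84.2%.

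**Figure D1:**
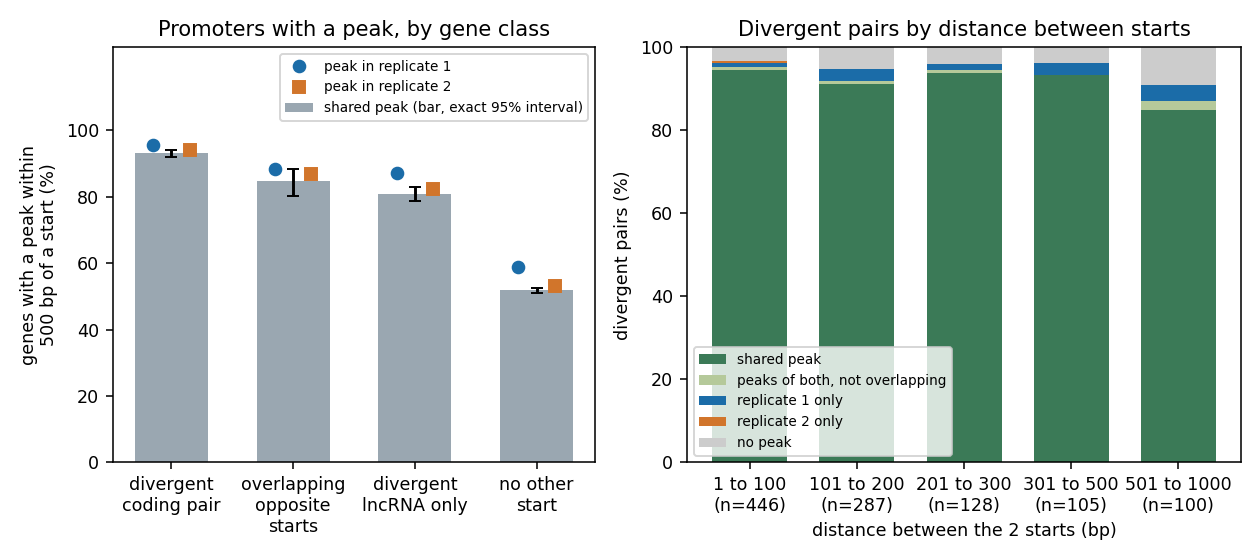
Left, the percent of genes with a peak within 500 bp of a start (y axis) in 4 classes of gene; bars give peaks shared by both replicates with exact 95% intervals, circles replicate 1 and squares replicate 2. Right, the percent of divergent pairs (y axis) in each state, by the distance between the closest starts in bp (x axis, with the number of pairs). Genes of divergent coding pairs stand highest at 93.1% and genes with no other start lowest at 51.8%, and the share of open pairs is lowest, 85%, where the starts lie over 500 to 1000 bp apart.

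The 2 starts of a pair were usually close together, and the closest pairs mostly shared a single accessible site. The median distance was 120 bp, with quartiles of 66 and 243 bp. Pairs were open in 94.6% of 446 cases at up to 100 bp, 91.3% of 287 at over 100 to 200 bp, 93.8% of 128 at over 200 to 300 bp, 93.3% of 105 at over 300 to 500 bp and 85% of 100 at over 500 to 1000 bp (76.5 to 91.4). The last interval overlapped those of the bins from 100 to 500 bp and not that of the closest bin. Heights changed little with distance: the median height of the highest peak was between 5.15 and 5.83 signal units in replicate 1 and between 3.08 and 3.25 in replicate 2 in every bin.

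Of the 987 open pairs, 600 (60.8%) held 1 shared peak, 298 held 2 and 89 held 3 or more. The share with 1 peak was 42.2% with peaks of replicate 1 alone, 61.3% with those of replicate 2 alone, 81.4% with an overlap of at least 50% and 76.3% with a 100 bp flank. The share with 1 shared peak was 69.7% at up to 100 bp, 64.1% at over 100 to 200 bp, 64.2% at over 200 to 300 bp, 36.7% at over 300 to 500 bp and 29.4% at over 500 to 1000 bp. The highest peak covered both starts in 71.1% of the closest pairs, in 47.3% at over 100 to 200 bp and in 19.2% at over 200 to 300 bp. Its median width was between 200 and 220 bp in every bin, so pairs farther apart than that could rarely be covered by it.

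Coverage by peaks was a single central hill for close pairs and a pair of hills for distant ones. At up to 100 bp, 90.8% of the open pairs in replicate 1 and 87.2% in replicate 2 had a peak over the midpoint of the starts. At over 300 to 500 bp the midpoint was covered in 46.9% and 61.2%, and the most covered positions lay 140 bp from it on the minus-gene side and 90 bp on the plus-gene side in replicate 1, covered in 63.3% and 67.3% of pairs. At over 500 to 1000 bp the midpoint was covered in only 14.1% and 34.1%. There the most covered positions in replicate 1 lay 360 bp to the minus-gene side (47.1%) and 280 bp to the plus-gene side (61.2%), and in replicate 2 they lay 330 bp (45.9%) and 350 bp (54.1%) away. The central dip was deeper in replicate 1 than in replicate 2 in both of these bins.

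**Figure D2:**
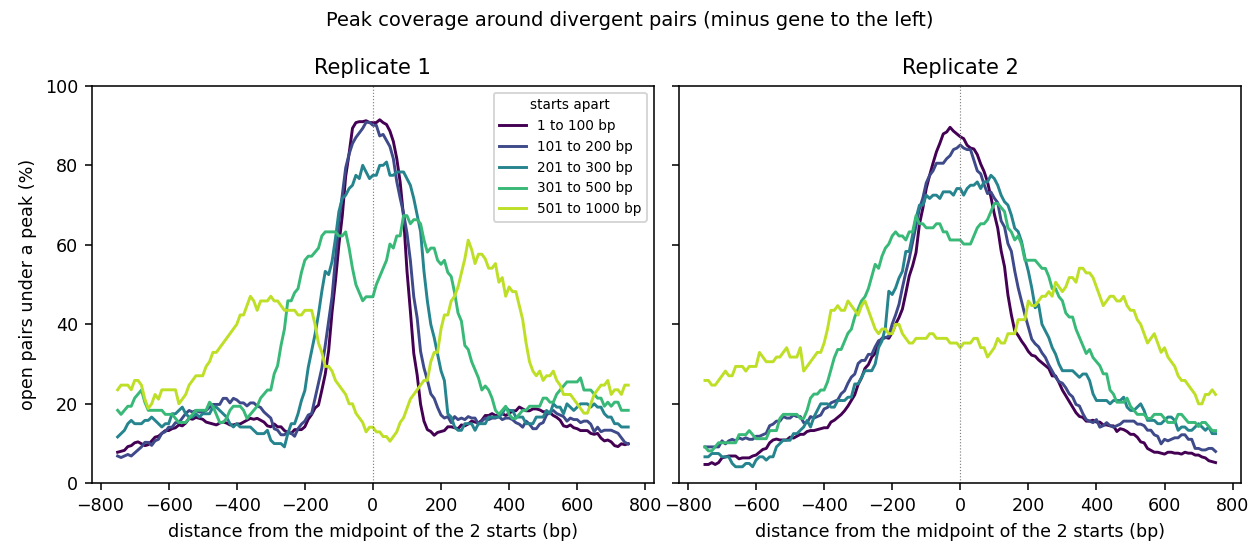
The percent of open pairs under a peak (y axis) at each distance from the midpoint of the 2 starts in bp (x axis, minus-strand gene to the left), in each replicate; lines are bins of distance between the starts. Pairs at most 200 bp apart form a single hill that covers the midpoint in over 85% of pairs, while pairs over 500 to 1000 bp apart form a hill on each side and fall to 14.1% (replicate 1) and 34.1% (replicate 2) at the midpoint.

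The position of lowest false discovery rate lay between the starts more often than in either gene body. The deposited false discovery rate (FDR) per interval was read across the closest starts of each pair plus 500 bp on each side. It lay between the 2 starts in 61.0% of 984 pairs in replicate 1 (57.8 to 64.0) and in 50.9% of 985 in replicate 2 (47.7 to 54.0), and the rest divided evenly between the bodies of the minus-strand gene (193 and 244 pairs) and the plus-strand gene (191 and 240). The replicates placed it a median of 24 bp apart. Measured from 1 start at a time, with positions inside the partner gene counted as upstream, it was upstream of the minus-strand start in 79.98% and 75.03% of pairs and of the plus-strand start in 80.4% and 75.2%. At 2609 open genes with a single start and no other start within 1000 bp, it was upstream in 66.04% and 55.2%. The search reached 500 bp to each side of a single start. At a pair it reached 500 bp downstream of each start, but upstream across the gap and 500 bp into the partner gene. The wider upstream side raises the upstream share at pairs, so the 2 sets of shares are not directly comparable.

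Peaks at divergent pairs were higher than peaks at other promoters in both replicates, with wide overlap between the classes. The median height of member peaks was 4.47 signal units in replicate 1 (quartiles 2.50 and 6.42) and 2.85 in replicate 2 (1.95 and 3.65). At other promoter peaks it was 2.48 (1.02 and 4.89) and 1.87 (1.14 and 2.92). The medians thus differed by 0.85 on the log2 scale in replicate 1 (1.80-fold) and by 0.61 in replicate 2 (1.52-fold). Of the members, 75.2% in replicate 1 and 76.7% in replicate 2 stood above the median of the other promoter peaks. Member heights ranged from 0.342 to 14.9 and from 0.473 to 7.24. The median width was 200 bp in both classes.

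The size of this difference changed with the peak lists used. With the shorter peak list that was also deposited for each sample, it was 0.46 in replicate 1 and 0.36 in replicate 2 on the log2 scale, and with all peaks of replicate 1, shared or not, it was 1.31. When only the highest shared peak of each open gene was taken, the medians were 5.51 and 3.16 for divergent pairs, 4.47 and 2.84 for overlapping starts, 4.42 and 2.64 for genes with a divergent noncoding start and 3.75 and 2.31 for genes with no other start. For genes with 1 start position, these values were 5.23 and 3.03 in divergent pairs against 3.51 and 2.25 with no other start.

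Members were also higher within each of 5 groups of promoter peaks by GC content, by the ratio of observed to expected CpG and by width, in both replicates. Over these groups the difference was between 0.37 and 1.49 on the log2 scale in replicate 1 and between 0.31 and 1.05 in replicate 2. It was smallest among peaks from 219.4 to under 240 bp, where the medians were 4.95 against 3.83 in replicate 1 and 2.98 against 2.41 in replicate 2. It was largest among peaks under 120 bp, where they were 2.58 against 0.920 and 2.25 against 1.09. In bulk tissue, a lower peak from fewer cells with an open site and from less cutting per cell cannot be told apart.

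Member sites were found again in the other replicate somewhat more often than other promoter sites. Of the replicate 1 peaks at divergent pairs, 1444 of 1822 overlapped a replicate 2 peak (79.3%, 77.3 to 81.1), against a background of 73.6% over all promoter peaks and 73.2% at other promoters. Of the replicate 2 peaks, 1382 of 1543 overlapped a replicate 1 peak (89.6%, 87.9 to 91.0), against a background of 88.5% and 88.4% at other promoters, and these intervals overlapped. Replicate 1 held 132685 peaks in all and replicate 2 held 59880. The difference between members and other promoters in the share of replicate 1 peaks found again was 6.10 percentage points, and it was 2.61 points with equal numbers of peaks per replicate, 3.98 with 50% overlap and 9.36 with the shorter lists.

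**Figure D3:**
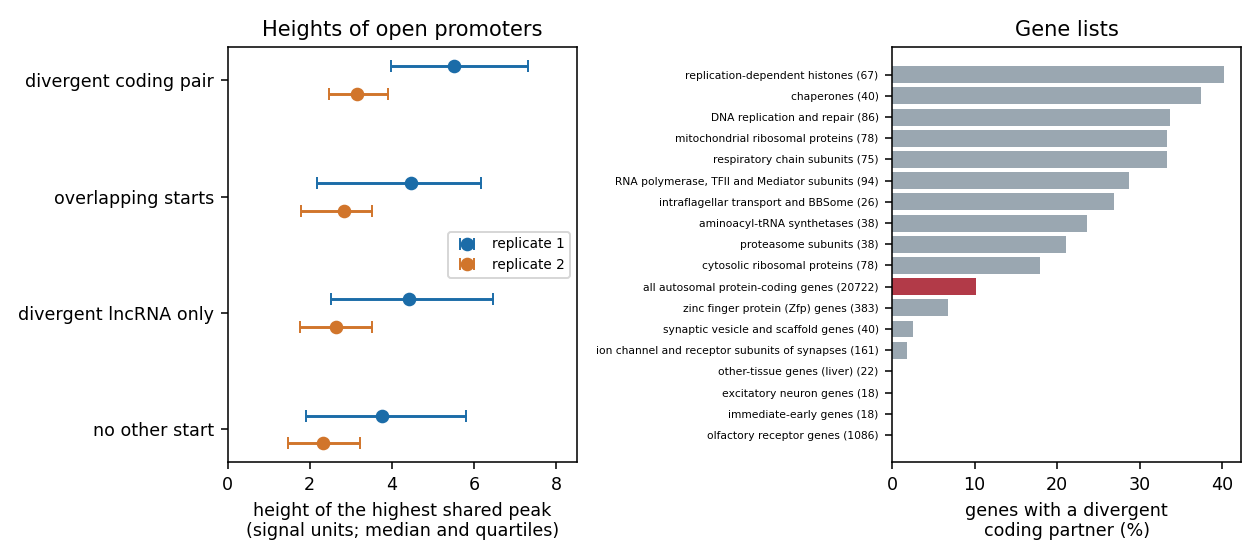
Left, the height of the highest shared peak of open genes in signal units (x axis) by gene class; points are medians and bars run from the lower to the upper quartile, in each replicate. Right, the percent of genes with a divergent coding partner (x axis) in each gene list, with the number of genes in brackets and all autosomal protein-coding genes in red. Divergent pairs have the highest medians, 5.51 and 3.16, and lists of basic cell functions stand above the 10.1% of all genes while neuronal lists stand below it.

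Divergent partners were common among genes for basic cell functions and rare among genes for neuronal functions. Over all autosomal protein-coding genes, 10.1% had a divergent coding partner, a property of the annotation and not of these samples. The share was 26 of 78 for mitochondrial ribosomal proteins, 25 of 75 for respiratory chain subunits, 29 of 86 for DNA replication and repair genes and 15 of 40 for chaperones. It was 27 of 94 for RNA polymerase, general transcription factor and Mediator subunits, 7 of 26 for intraflagellar transport and BBSome genes, 9 of 38 for aminoacyl-tRNA synthetases, 8 of 38 for proteasome subunits and 14 of 78 for cytosolic ribosomal proteins. It was 26 of 383 among zinc finger protein (Zfp) genes.

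Nearly every one of these pairs was open. All pairs were open for chaperones (14), RNA polymerase and Mediator subunits (28), the transport and BBSome genes (7), the synthetases (8), the proteasome (8) and Zfp genes (23). For mitochondrial ribosomal proteins 24 of 25 pairs were open, for the respiratory chain 25 of 26, for DNA replication and repair 28 of 29 and for cytosolic ribosomal proteins 13 of 14, beside 92.6% of all pairs. Many genes of these lists outside divergent pairs were open too, beside 54.3% of all genes outside such pairs. These were 52 of 52 mitochondrial ribosomal, 57 of 57 DNA replication and repair, 47 of 50 respiratory chain, 61 of 64 cytosolic ribosomal and 28 of 30 proteasome genes. Zfp genes were open in 299 of 357 cases outside pairs and in 26 of 26 in pairs. The median height of the highest peak per pair was 5.64 and 3.38 for mitochondrial ribosomal proteins, 6.65 and 3.33 for DNA replication and repair, and 7.48 and 4.06 for the transport and BBSome genes, beside 5.51 and 3.16 for all open pairs. It was below those medians in both replicates for the respiratory chain (5.08 and 3.04), the synthetases (5.48 and 2.92) and Zfp genes (4.82 and 2.88), and for the proteasome it was 5.43 and 3.59.

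Individual pairs of these lists reached well above the median. The height of a pair was that of its highest shared peak, which could lie outside the stretch between the closest starts. Rpl9/Lias, a ribosomal protein gene and the gene for lipoic acid synthase, reached 10.1 signal units in replicate 1 and 6.02 in replicate 2 with starts 53 bp apart. Med22/Rpl7a, a Mediator subunit and a ribosomal protein gene, reached 12.2 and 5.36 with starts 87 bp apart. Klc4/Mrpl2, a kinesin light chain and a mitochondrial ribosomal protein gene, reached 9.36 and 6.37. Each of these 3 pairs held 1 shared peak in its window.
The pair Desi1/Xrcc6, which includes the gene for the DNA end-binding protein Ku70, reached 10.2 and 4.58. Noa1/Polr2b, with the gene for the second largest subunit of RNA polymerase II, reached 10.5 and 5.16, at a peak downstream of the closest Polr2b start. Ndufa8/Morn5, with a subunit gene of respiratory complex I, reached 9.12 and 4.53, and Cct5/Fam173b, with a subunit gene of the cytosolic chaperonin, reached 8.59 and 5.01. In each of these pairs both replicates stood above the median of all open pairs.

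Few neuronal genes were part of a divergent pair. None of 18 excitatory neuron genes and none of 18 immediate-early genes had a divergent coding partner, although 15 and 18 of them were open. Over all autosomal protein-coding genes 58.2% were open. The excitatory list also served to check the tissue, beside a liver list of which 1 of 22 genes was open. Of 40 synaptic vesicle and scaffold genes 1 was in a pair, and of 161 ion channel and receptor subunits of synapses 3 were, in 2 pairs. None of 1086 olfactory receptor genes had a divergent partner, and 9 of them were open.

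The 3 neuronal pairs had very different heights. Kcnab2/Nphp4, which joins an auxiliary subunit of voltage-gated potassium channels to the ciliary gene nephrocystin 4, reached 11.8 and 5.90 and ranked 11 among the open pairs. That peak lay downstream of the closest Kcnab2 start, outside the stretch between the starts. Nlgn2/Tmem256, with neuroligin 2, an adhesion protein of inhibitory synapses, reached 5.49 and 3.92, near the median of replicate 1. Its closest starts lay 730 bp apart, and its window held 3 shared peaks. Gabra4/Gabrb1, a pair of GABA-A receptor subunit genes 132 bp apart, reached only 1.21 and 1.40, which was 0.219 and 0.442 of the median of open pairs. Its rank was 959 of 987.

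Histone genes were the list with the largest share of divergent partners and the lowest heights. Of 67 replication-dependent histone genes, whose products package DNA made in S phase, 27 were in divergent pairs. Of the 14 pairs 10 were open, with median heights of 2.36 and 1.80. The highest were Hist1h2an/Hist1h2bp at 5.18 and 1.73, Hist1h2bf/Hist1h2ad at 3.91 and 1.87 and Hist1h2bl/Hist1h2ai at 3.10 and 1.97. In replicate 2 these 3 pairs all stood below the median of open pairs, and in replicate 1 they did too. Histone genes have near-identical copies, and the handling of reads that match several copies is not given here, so these heights are uncertain.

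**Figure D4:**
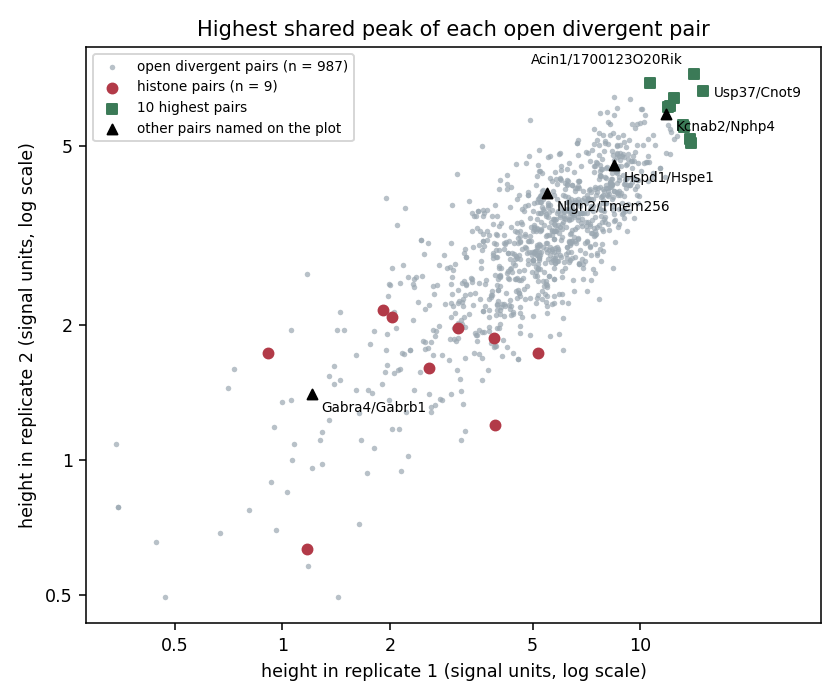
The height of the highest shared peak of each open divergent pair in replicate 1 (x axis) and replicate 2 (y axis), in signal units on log scales; circles mark pairs of 2 histone genes, squares the 10 highest pairs and triangles other pairs named on the plot. The 10 highest pairs sit at 10.7 or more in replicate 1 and at 5.08 or more in replicate 2, histone pairs lie at or below 5.18 in replicate 1 and below the median of 3.16 in replicate 2, and Gabra4/Gabrb1 lies at 1.21 and 1.40.

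The highest pair was Acin1/1700123O20Rik, with the gene for the splicing-associated protein acinus, at 14.2 signal units in replicate 1 and 7.24 in replicate 2. This peak lay wholly downstream of the closest Acin1 start, and not between the starts. Usp37/Cnot9, a deubiquitinase gene and a subunit gene of the CCR4-NOT deadenylase complex, reached 14.9 and 6.61. Both stood over 2 times above the median of open pairs in each replicate, at 2.57 and 2.29 times for the first and 2.71 and 2.09 times for the second.
Cdc27/Myl4, a subunit gene of the anaphase-promoting complex and a myosin light chain gene known from heart and embryonic muscle, followed with 12.4 and 6.40. Apaf1/Ikbip, with the core gene of the apoptosome, reached 12.1 and 6.12. Nfya/Oard1, with a subunit gene of the CCAAT-binding factor NF-Y, reached 10.7 and 6.90.
These 5 pairs had starts 108 to 252 bp apart. Also among the 10 highest were Ruvbl2/Gys1 (13.2 and 5.56), Nfkbil1/Atp6v1g2 (13.3 and 5.51), Fbh1/Ankrd16 (13.7 and 5.16) and Gtf3c1/D430042O09Rik (13.8 and 5.08). They include genes for muscle-type glycogen synthase (Gys1), a proton pump subunit (Atp6v1g2) and a subunit of the RNA polymerase III factor TFIIIC (Gtf3c1). The highest peak of Nfkbil1/Atp6v1g2 lay downstream of the closest Atp6v1g2 start. The FDR was read only up to 500 bp from the closest starts, which did not reach that peak. Within that reach, the lowest FDR of the pair lay between the closest starts in both replicates, so it does not describe the highest peak.

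The open pairs with the closest starts lay 1 to 3 bp apart, and 5 of them are described; others, such as Ndufs1/Eef1b2, were tied at 3 bp. Bag4/Lsm1, a chaperone regulator and an mRNA decay gene, reached 6.72 and 5.14, and Dcun1d3/Lyrm1 reached 6.86 and 3.44. The highest peak of Dcun1d3/Lyrm1 lay downstream of the closest Dcun1d3 start. Arfrp1/Zgpat at 3.98 and 1.97, Dhrs1/Nop9 at 3.96 and 2.10 and Map4k5/Atl1 at 3.503 and 3.28 lay below the median of replicate 1.

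Pairs known as textbook bidirectional promoters were all open where the annotation held them, beside 92.6% of all pairs. Of 13 such pairs, 8 met the rule, and the other pairs were outside it in this annotation or not matched. Hspd1/Hspe1, the mitochondrial chaperonin genes, reached 8.44 and 4.54 with starts 108 bp apart. Atm/Npat, the DNA damage kinase gene and an activator of histone genes, reached 9.47 and 4.27, and Brca1/Nbr1 reached 9.08 and 4.20. These 3 stood above the median of open pairs in both replicates. The highest peak of Brca1/Nbr1 lay downstream of the closest Nbr1 start.
Mcm4/Prkdc, a replicative helicase subunit and the DNA-dependent protein kinase, gave 7.75 in replicate 1, above the median, and 2.76 in replicate 2, below it. Mrps12/Sars2 gave 5.77 and 4.38, and Psmb9/Tap1, an immunoproteasome subunit and the peptide transporter of antigen presentation, gave 5.73 and 3.88. Their highest peaks lay downstream of the closest Sars2 start and of the closest Psmb9 start. Surf1/Surf2 was lower, at 3.19 and 2.19. Cbln3/Khnyn was the lowest of the 8, at 1.73 and 1.43, where Cbln3 is known as a cerebellin of cerebellar granule cells.

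Closed pairs were poor in CpG. In windows of 300 bp centred between the starts, the median ratio of observed to expected CpG was 0.856 at the 987 open pairs (quartiles 0.722 and 0.982), 0.399 at the 79 other pairs and 0.223 at the 48 pairs with no peak. It was over 0.6 at 88.3% of open pairs and at 22.9% of pairs with no peak. The median GC content was 62.7% at open pairs, 55.7% at the 79 others and 52.8% at the 48. An ETS motif was present at 29.5% of open pairs and at 4 of the 79 others, and a GC box at 67.8% and 31.6%. The CCAAT box was present at 26.6% of open pairs and at 19.0% of the 79 others. Within the 79 it was uneven, at 27.1% of the 48 pairs with no peak and at 0 of the 23 with a peak in 1 replicate only. The other measures were uneven too. The 23 had a GC box in 60.9%, a median GC content of 63.7% and a median CpG ratio of 0.595. At the 48 these were 16.7%, 52.8% and 0.223, so in GC the 23 were nearer to the open pairs.

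The closest pairs without a peak were Gm3448/Gm3435, Best1/Rab3il1, Rnf151/Rps2, 1700028J19Rik/Gm36864 and Gm9857/Henmt1, with starts 7 to 55 bp apart. Best1 is a chloride channel gene of the retinal pigment epithelium, and Henmt1 a piRNA methyltransferase gene of the germ line. A closed pair does not mean that both genes were closed: of the 48 pairs, 17 had 1 gene open at another of its starts and 2 had both, and the ribosomal protein gene Rps2 was among them.
Pairs with a peak in replicate 1 only were low there: S100a1/S100a13 reached 1.24, Ush1g/Otop2 reached 1.12, Gm10447/Shroom1 reached 0.952, Fam83h/K230010J24Rik reached 0.920 and Plgrkt/Cd274 reached 0.840. The 2 pairs with a peak in replicate 2 only were Tradd/Fbxl8 at 0.979 and Shox2/Rsrc1 at 0.549. The median height of the 21 pairs found in replicate 1 only was 0.706, far below the 5.51 of open pairs.

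Pairs with like symbols, many of them relatives from 1 gene family, were open less often than other pairs. This grouping was chosen after values were seen, and it took pairs whose symbols have the same letters (at least 3) before the first digit. Of 36 such pairs 25 were open (69.4%, 51.9 to 83.7), against 962 of 1030 others (93.4%, 91.7 to 94.8). The share was similar for the 13 histone pairs (9 open) and the 23 other pairs (16 open). Their median CpG ratio was 0.605 against 0.848.
Among those without a shared peak were Col4a4/Col4a3, basement membrane collagens of the kidney glomerulus, and Ifit1bl2/Ifit1, interferon-induced genes, both with no peak in either replicate. Abcg5/Abcg8, the sterol transporters of liver and gut, had a low peak in replicate 1 only. Among those open were Safb2/Safb, scaffold attachment factors, Hars/Hars2, the cytosolic and mitochondrial histidyl-tRNA synthetases, and Hspa1a/Hspa1l, heat shock proteins.

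Several motifs were more frequent at member peaks than at other promoter peaks. Exact matches on either strand were counted in windows of 300 bp centred on each peak; every MEF2 match also holds a TATA box on the opposite strand, and matches of other motifs may share bases. The ETS motif (CCGGAAG) was present in 25.8% of member windows (23.6 to 28.2), against 14.02% of other promoter windows (13.5 to 14.6) and 15.03% of all promoter windows. The CCAAT box (CCAATC) was present in 23.5% (21.4 to 25.8) against 17.0% (16.4 to 17.6), and 17.5% of all. The YY1 motif (ATGGCGG) was present in 12.8% (11.2 to 14.7) against 8.74% (8.30 to 9.20), and 9.09% of all.
The NRF1 motif (GCGCATGC) was present in 6.35% (5.15 to 7.75) against 4.64% (4.31 to 4.98), and 4.78% of all. The ZFP143 motif (CTACAATTC) was rare, in 1.05% (0.587 to 1.72) against 0.483% (0.380 to 0.606), and 0.531% of all. For ETS, the CCAAT box, YY1 and NRF1 the intervals of the classes did not overlap, while for ZFP143 their ends crossed. In windows of 150 bp the difference between the classes fell from 4.11 to 2.18 percentage points for YY1, from 11.8 to 8.01 for ETS and from 6.58 to 5.14 for the CCAAT box, and was 1.71 points for NRF1.

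Other motifs did not separate the classes or were less frequent at members. The GC box (GGGCGG) was present in 66.7% of member windows (64.2 to 69.1) and 66.1% of the others (65.3 to 66.8), and 66.1% of all. The TATA box (TATAAA) was present in 3.49% and 3.56%, and the E-box (CACGTG) in 10.7% and 9.14%. The CRE (TGACGTCA) was present in 3.98% and 2.91%, the RFX motif (GTTGCCAT) in 1.47% and 1.29% and the CTCF motif (AGGGGGC) in 15.2% and 17.1%. The intervals of all 6 overlapped between the classes.
The AP-1 motif (TGAGTCA), known for activity-regulated enhancers in neurons, was present in 1.54% of member windows (0.965 to 2.32) against 2.64% (2.39 to 2.90). The E-box bound by neuronal bHLH factors (CAGATGG) was present in 2.72% (1.94 to 3.70) against 3.98% (3.68 to 4.30), and the interval ends crossed. The MEF2 motif (CTATTTATA) was found in 1 member window, 0.0698%, against 0.202%. Over all promoter windows the share was 3.55% for the TATA box, 9.27% for the E-box, 2.997% for the CRE, 1.31% for RFX and 16.9% for CTCF. It was 2.54% for AP-1, 3.87% for the neuronal E-box and 0.191% for MEF2.

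Position was examined for the ETS, NRF1, CCAAT box, GC box, YY1 and CRE motifs only, and all but YY1 were concentrated between the starts. In the 987 open pairs, CCAAT boxes numbered 1.82 per kb between the starts and 0.356 per kb in the 500 bp inside each gene. The densities were 5.74 and 2.51 for the GC box, 1.05 and 0.444 for ETS, 0.403 and 0.0881 for NRF1 and 0.134 and 0.0344 for the CRE. YY1 was the reverse, with 0.156 per kb between the starts and 0.318 inside the genes. A CCAAT box lay between the starts of 24.6% of open pairs, an ETS motif in 17.9% and a GC box in 53.6%.

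**Figure D5:**
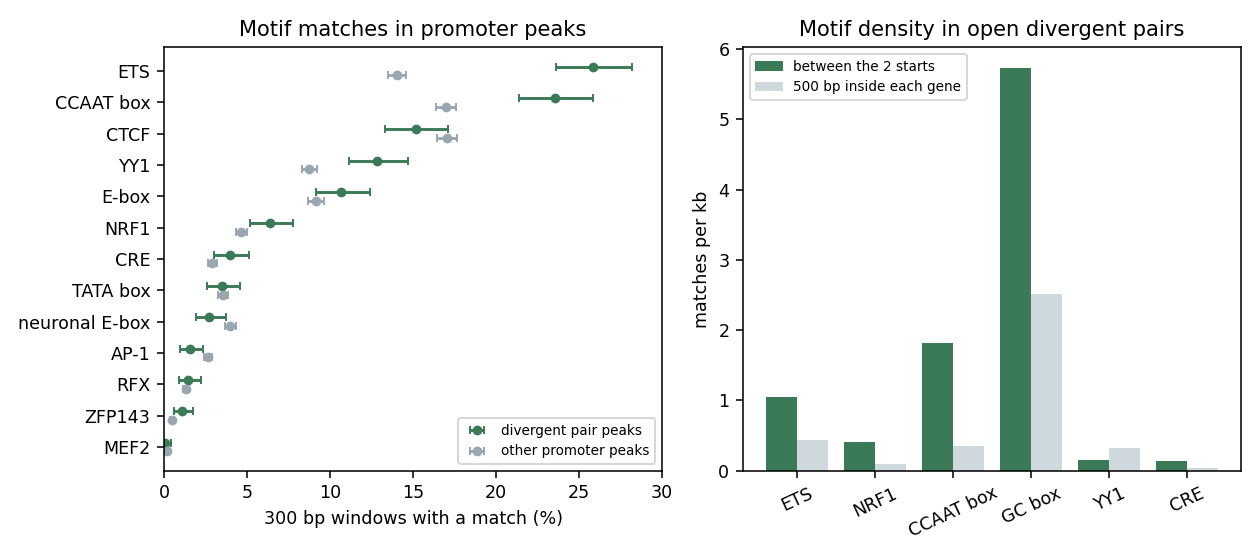
Left, the percent of 300 bp windows with a motif match (x axis) in peaks at divergent pairs and at other promoters, with exact 95% intervals; the GC box, at 66.7% and 66.1%, is left out for scale. Right, matches per kb (y axis) between the 2 starts and in the 500 bp inside each gene of open pairs. ETS stands out on the left at 25.8% against 14.02%, and on the right 5 of 6 motifs are denser between the starts, YY1 being the exception.

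Footprints were also concentrated between the starts. Their density there was 13.2 per kb in replicate 1 and 9.93 per kb in replicate 2, against 3.66 and 3.44 per kb inside the genes. These are densities per kb of sequence, in peaks or not. At open pairs up to 100 bp apart, a peak covered the midpoint in 90.8% and 87.2%. At 300 bp to the minus-gene side the shares were 14.2% and 24.9%, and at 300 bp to the plus-gene side 15.4% and 23.5%. The density contrast was not separated from where the peaks lay. At least 1 footprint lay between the starts of 84.3% and 76.4% of open pairs. The authors' footprints overlapped 77.0% of NRF1 matches and 80% of CRE matches in member windows in both replicates, but only 18.4% of ETS, 12.5% of CCAAT box and 17.1% of YY1 matches. At other promoter peaks the order was similar, with 66.5%, 73.9%, 16.6%, 9.38% and 17.2%.

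A footprint in both replicates was found in 1121 of 1432 member peaks (78.3%, 76.1 to 80.4), against a background of 70.7% of all promoter peaks and 69.9% of the others. This difference of 8.34 percentage points was not stable. It was 2.81 points with the shorter peak lists, 3.80 points when replicate 2 alone was used and -1.06 points when replicate 1 alone was used. Footprints per kb of member peak were 15.9 and 12.6, against 13.8 and 10.9 at other promoter peaks. By peak width, the shares with a footprint in both replicates were 39.2% of members and 26.2% of others under 120 bp. They were 71.7% and 65.0% from 120 to under 180 bp, and 88.0% and 86.9% from 180 to under 219.4 bp. From 219.4 to under 240 bp they were 89.9% and 86.5%, and from 240 bp up 85.2% and 79.5%. In the group lowest in CpG ratio members were lower, at 53.0% against 55.7%.

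Member peaks were slightly lower in GC and higher in the CpG ratio than other promoter peaks. The median GC content of the windows was 63.3% (quartiles 58.7 and 68.3) against 65.3% (59.7 and 70.7). The median CpG ratio was 0.845 (0.720 and 0.962) against 0.804 (0.642 and 0.931). The median number of CpG per window was 25 in both classes. The higher ratio was not particular to members: other promoter peaks with a divergent long noncoding RNA start had a median ratio of 0.857 and 28 CpG. The quartiles of the classes overlapped widely for both measures.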

How the data were processed

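DNase-seq of 2 hippocampus samples was analysed from the deposited files, on assembly mm10 per the labels. For each sample the authors deposited 2 peak lists with a signal value per peak (its height), a list of footprints carrying the constant 0.01 as a score (used by position only), and an FDR file (q-values per interval, listed only under 0.05). The aligner, the callers, their thresholds, the signal scaling and the depth were not stated in these sources. Heights under 500 steps were whole multiples of 1 step within 0.02 steps, of 0.00535 signal units in replicate 1 and 0.0108 in replicate 2, so heights were compared only within a replicate.

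The longer peak list of each sample was used. Shared peaks were merged intersections of at least 1 bp, each with, per replicate, the maximum signal among the peaks that overlapped it. Starts came from GENCODE M21 on the 19 autosomes, and sequence from the RefSeq GRCm38 assembly, whose chromosome lengths held every peak. Motifs, GC and CpG were read in 300 bp windows. Computation used Python 3.11.15, numpy 2.4.6, pandas 2.3.3, scipy 1.17.1 and pysam 0.24.0, and the scripts were tested on simulated data.

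Named pairs were the 10 highest open pairs by mean log2 height over the replicates, the 5 closest open pairs, the 5 closest pairs without a peak, up to 5 found in each single replicate, the 3 highest of each gene list, all pairs of the neuronal lists and the textbook pairs; not every pair so chosen is described, and some are not reported here. Members, gene lists and motifs were chosen with earlier results of these data known. Alternatives were the shorter lists, 50% overlap, equal peak numbers, starts within 300 bp, a 100 bp flank, GENCODE basic transcripts, narrower sequence windows, other comparison promoters and each replicate alone.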

Additional observations from a re-analysis of the deposited data

How the results depend on the processing

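The share of open pairs was 92.6% and became 90.3% with the shorter peak lists, 71.3% with an overlap of at least 50% of both peaks, 90.6% with a 100 bp flank and 93.5% to 95.3% with each replicate alone. The excess of open genes in divergent pairs, 38.8 percentage points, became 43.0 points with the shorter lists, 30.6 with 50% overlap and 34.5 to 38.2 with each replicate alone. The log2 difference in height in replicate 1, 0.85, became 0.46 with the shorter lists, 0.61 with 50% overlap, 0.59 with equal numbers of peaks, 0.58 with a 100 bp flank and 1.31 without replicate 2. In replicate 2, 0.61 became 0.36 with the shorter lists and 0.69 without replicate 1. The excess of peaks with a footprint, 8.34 points, became 2.81 with the shorter lists, 3.91 with 50% overlap, 3.90 with equal numbers, 10.8 with starts within 300 bp, 5.32 with a 100 bp flank and -1.06 to 3.80 with each replicate alone, the negative value without replicate 2. The GC difference, -2 points, became -2.67 with the shorter lists, -2 to -1.33 with each replicate alone, and 0.0298 against promoters of the same GC bin, which removes it by construction. For the other changes the cause was not tested. The remaining alternatives of these results moved none of them beyond the spread between replicates or the counting interval. With 2 samples of 1 group, and no stated depth, the spread between animals is not known, and a site open in few cells can be missed. No paired analysis was possible because there is 1 group.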
